A study of Mus musculus with 8 samples.

Results

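Testis RNA of mice labelled as lacking both Ku86 and Terc was compared with testis RNA of mice labelled as lacking Ku86 alone, so that by the labels the Terc genotype differed and the Ku86 loss was shared. The Xrcc5 signal went against the Ku86 label, so all genotype names stand for labels. The comparison took 4 of the 8 arrays of the series: 2 arrays of Ku86-/-, Terc-/- mice, here called double knockout, and 2 arrays of Ku86-/-, Terc+/+ mice, here called Ku86 knockout. The labels place Terc-/- animals in generation 3 without Terc. The other 4 arrays, 2 of Ku86+/+, Terc-/- mice of the same generation (Terc knockout) and 2 of Ku86+/+, Terc+/+ mice (wild type), helped to estimate the spread and gave the effect of Terc loss with Ku86 present. All 12422 non-control probe sets of the 12488 on the Affymetrix MG_U74Av2 array were considered, and 7282 of them, standing for 5530 genes, were bright enough to be tested. A probe set is a group of short oligonucleotides that together report 1 transcript. Strain and age are not given in the sources used here.

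Telomerase extends chromosome ends by copying a template carried in its RNA subunit, which Terc encodes, and mice bred without Terc lose telomere sequence with each generation. Ku86, the product of Xrcc5, pairs with Ku70, the product of Xrcc6, to bind broken DNA ends for non-homologous end joining, and the pair also binds telomeres. In late-generation Terc-deficient mice the testis is known as a sensitive tissue, because dividing germ cells with short telomeres are lost by apoptosis.

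Each value is a deposited signal in arbitrary intensity units, and differences are on the log2 scale as double knockout minus Ku86 knockout. Levels of different probe sets were not compared, except to choose 1 probe set per gene for the gene lists. The median signal was 60.5 and 70.5 on double knockout replicates 1 and 2, and 60.5 and 67.5 on Ku86 knockout replicates 1 and 2. Both replicates 1 were scanned on 1 day and both replicates 2 on another, and the chip lot changed with the day. Both Terc knockout arrays and wild type replicate 2 shared the day and lot of the replicates 2. Wild type replicate 1 was a repeated hybridisation with a scan day and lot of its own, with a median signal of 49.7 and 26% of probe sets at or under the floor, against 15.6% to 22.6% on the other arrays. The scanner records name a pool of 3 animals for double knockout replicate 1 and a single animal for each other array. Across tested probe sets the 2 double knockout arrays correlated at 0.945 and the 2 Ku86 knockout arrays at 0.947, while the arrays of different genotype that shared a day correlated at 0.949 and 0.957. Nothing in the labels says how the animals were related, so p-values measure the spread between these arrays. The scanner records describe the material as germ cells and the labels as testis. Markers of somatic testis cells were present on all 4 arrays: the summed signal of 5 Sertoli cell markers (Wt1, Clu, Amh, Inha, Fshr) lay between 985.6 and 2215.1, and that of 5 Leydig cell markers (Cyp17a1, Cyp11a1, Hsd3b6, Star, Insl3) between 702.1 and 1674.9. In such bulk RNA, fewer cells of a type and less RNA per cell cannot be told apart.

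The targeted genes were examined first. Terc has no probe set on the array among those analysed, so the Terc label of an array could not be checked. Xrcc5 had a signal of 259.0 and 423.3 on the arrays labelled double knockout and of 419.9 and 458.8 on those labelled Ku86 knockout. All 4 exceeded the arrays labelled Ku86+/+, which lay between 11.1 and 75.6, so the Xrcc5 signal went against the Ku86 label. The position of the probes relative to the deleted part of Xrcc5 is not known here, and the second Xrcc5 probe set stayed at or below 1.1 on the 4 arrays. Between the 2 groups compared, the Xrcc5 ranges overlapped, with a difference of -0.41 ± 0.634 (SE). Xrcc6, the Ku70 partner, measured 94.2 and 97.8 in double knockouts and 95.6 and 56.4 in Ku86 knockouts, a difference of 0.39 ± 0.396. Tert, the protein subunit of telomerase that works with Terc, measured 141.6 and 103.7 against 126.9 and 124.1, a difference of -0.05 ± 0.316. None of these 3 genes passed the test (adjusted p = 1.0 for each, limma).

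No probe set distinguished the genotypes at an adjusted p under 0.05 (0 of 7282, 0.0%, limma over 8 arrays with Benjamini-Hochberg adjustment). Over the 5530 genes the count was also 0 (0.0%). The unadjusted p was under 0.05 for 245 probe sets (3.36%), 167 higher (2.29%) and 78 lower (1.07%) in double knockouts, and under 0.01 for 53 (0.728%), 37 higher (0.508%) and 16 lower (0.22%). Centring each array on its median gave 27 higher and 19 lower at the latter threshold. Signals of the 2 groups did not overlap for 2336 probe sets (32.1%), of which 1127 were higher (15.5%) and 1209 lower (16.6%) in double knockouts. The median difference of all tested probe sets was -0.01, and the median SE was 0.313. The same 4 arrays fitted with the experiment number as a block, which pairs the arrays scanned together, called 3 probe sets (0.0412%): Pla2g12a and Tmem129, both lower (adjusted p = 0.000577 each), and Klk1b8, higher (adjusted p = 0.0298). That blocked fit has 1 residual degree of freedom, and the 8-array fit with scan day as a block called 0 (0.0%), with a lowest adjusted p of 0.389.

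The difference was also read within each scan day. On day 1, 512 probe sets (7.03%) differed at least 2-fold between double knockout replicate 1 and Ku86 knockout replicate 1, and on day 2, 377 (5.18%) did so between the replicates 2. On both days 26 were at least 2-fold higher (0.357%) and 13 at least 2-fold lower (0.179%) in the double knockout, while 29 (0.398%) differed 2-fold in opposite directions. Across probe sets the within-day differences correlated at 0.14 and had the same sign for 57.2%, a description in which probe sets are not independent.

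**Figure D1:**
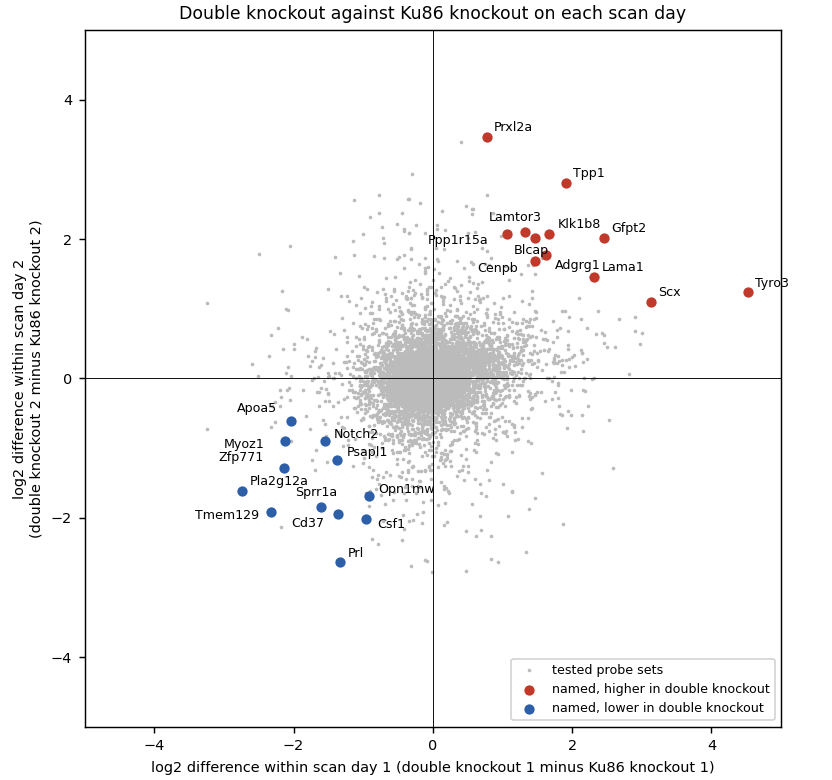
Log2 difference between double knockout and Ku86 knockout within scan day 1 (horizontal) and within scan day 2 (vertical) for the 7282 tested probe sets in grey, with the 12 named higher probe sets in red and the 12 named lower ones in blue. The grey cloud is centred near 0 on both axes, and 18 of the 24 named probe sets lie beyond 1 in size on both days.

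The 24 genes described next had a probe set with a single gene symbol, groups that did not overlap and an unadjusted p under 0.01, and were the 12 with the greatest differences in each direction. Their values are a description, because none passed the adjusted test. Of the 24, 18 differed at least 2-fold on both scan days (11 higher, 7 lower). In 22 of the 24 the mean signal of the lower group was under 100, and in 13 it was under 38.1, the mean level asked of a tested probe set. Thus most of the list was dim in its lower group, which choosing the greatest differences favours. The same share over all tested probe sets is not given here.

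Klk1b8 belongs to the glandular kallikreins, a cluster of closely related secreted serine proteases. Its signal was 229.7 and 249.4 in double knockouts and 72.2 and 58.8 in Ku86 knockouts. The Ku86 knockout arrays stood apart from all the others, since Terc knockouts measured 249.5 and 363.2 and wild types 223.0 and 286.1. The means of 239.6 ± 13.9 and 65.5 ± 9.48 (SD, n = 2 each) differed 3.66-fold, with a log2 difference of 1.88 ± 0.284 (SE) and an adjusted p of 0.128. The probe set is of the type that can share probes within a gene family. A second Klk1b8 probe set measured 59.1 and 70.9 against 77.1 and 73.4, a difference of -0.22 ± 0.378. Other kallikreins did not share the pattern of the first probe set: Klk1b1 differed by -0.10 ± 0.183, Klk1b22 by -0.04 ± 0.23 and Klk1b16 by -0.18 ± 0.286. Klk1b21 measured 181.4 and 193.0 against 97.8 and 156.6, a difference of 0.60 ± 0.385. Klk8 measured 25.1 and 22.3 against 50.1 and 52.0, a difference of -1.11 ± 0.54 with an adjusted p of 1.0.

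Pla2g12a encodes a secreted phospholipase A2. Its signal was 331.2 and 425.8 in double knockouts and 2211.7 and 1300.6 in Ku86 knockouts. Both double knockout arrays were therefore well under the Ku86 knockouts, and the same split held without Ku86 loss, at 297.1 and 567.6 in Terc knockouts against 1780.6 and 2660.6 in wild types. The mean was 378.5 ± 66.9 in double knockouts and 1756.1 ± 644.2 in Ku86 knockouts (SD, n = 2 each), 4.64-fold apart, with a log2 difference of -2.18 ± 0.338 (SE) and an adjusted p of 0.128. In the 4 arrays with Ku86, the difference between Terc knockout and wild type was -2.41 ± 0.338 (adjusted p = 0.0488; 0.209 without wild type replicate 1, 0.159 without wild type replicate 2, 0.254 without Terc knockout replicate 1 and 0.237 with scan day as a block), and the 2 effects differed by 0.23 ± 0.478 (adjusted p = 0.945 for the interaction). That probe set, too, is of the type that can share probes with related sequences. A second Pla2g12a probe set measured 39.5 and 39.9 against 59.4 and 59.1, a difference of -0.58 ± 0.568.

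Tmem129, which encodes an endoplasmic reticulum ubiquitin ligase, had a signal of 133.1 and 113.8 in double knockouts and of 662.7 and 426.4 in Ku86 knockouts. The groups were clear of each other, whereas wild types measured 36.1 and 56.2 and Terc knockouts 165.1 and 624.6, so the double knockouts lay between wild type and the other genotypes. The difference was -2.11 ± 0.503 (adjusted p = 1.0). With Ku86 present, Terc knockout minus wild type was 2.83 ± 0.503, and the interaction of -4.94 ± 0.711 had the lowest p of that test (1.7e-05 unadjusted, 0.124 adjusted). The second Tmem129 probe set did not show these differences, with 329.4 and 331.3 in double knockouts against 353.9 and 337.6 in Ku86 knockouts.

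Among the genes with more signal in double knockouts, Tyro3 had the greatest difference. Tyro3 is a receptor tyrosine kinase of the family that Sertoli cells use to engulf dying germ cells. It measured 269.9 and 159.4 in double knockouts and 10.7 and 67.5 in Ku86 knockouts. Both double knockout arrays stood above every other array, as Terc knockouts (68.3 and 9.9) and wild types (47.2 and 26.2) reached no more than 68.3. The difference of 2.88 ± 0.891 came from 4.52 on day 1 and 1.24 on day 2, and Ku86 knockout replicate 1 lay under the floor of 11.8 to which low signals were raised, so the former is set by that floor. A second Tyro3 probe set, below the level for testing, measured 32.8 and 35.9 against 20.7 and 21.4.

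Tpp1, the lysosomal tripeptidyl peptidase that shares only its name with the telomere protein encoded by Acd, measured 113.4 and 161.2 against 30.2 and 23. Lama1, a laminin chain of basement membranes, measured 86.4 and 108.9 against 17.3 and 39.5. Adgrg1, an adhesion receptor coupled to G proteins, measured 128.8 and 111.3 against 41.9 and 32.3. For each of these genes the double knockouts also exceeded both Terc knockouts and both wild types, whose highest values were 45.3 for Tpp1, 39.8 for Lama1 and 43.0 for Adgrg1. The differences were 2.36 ± 0.688, 1.89 ± 0.557 and 1.70 ± 0.465. Lamtor3, a subunit of the Ragulator complex that holds mTORC1 at lysosomes, measured 77.0 and 76.7 against 30.8 and 17.8, with no other array above 47.3.

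In the next 4 genes at least 1 array with Ku86 came near or passed the double knockout level. Gfpt2, an enzyme of hexosamine synthesis, measured 86.8 and 97.4 against 15.8 and 24, and Terc knockout replicate 2 reached 100.4. Cenpb, which binds a motif of centromeric satellite DNA, measured 83.7 and 83.8 against 30.4 and 26, and Terc knockout replicate 1 and wild type replicate 1 came close at 76.6 and 75.3. Blcap measured 72.7 and 92.6 against 26.2 and 22.8. Here the Terc genotype alone ordered the arrays, because Terc knockouts measured 85.8 and 101.5 and wild types 28.3 and 27.3, and the difference was 1.75 in both Ku86 backgrounds. Ppp1r15a, the stress-induced subunit that directs dephosphorylation of eIF2-alpha, measured 94.6 and 158.5 against 45.5 and 37.6, and 174.1 and 125.5 in Terc knockouts against 80.9 and 45.9 in wild types. For Ppp1r15a, too, every array labelled Terc-/- lay above every array labelled Terc+/+.

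Scx, a transcription factor of tendon precursors, measured 200.1 and 71.4 against 22.8 and 33.4, a difference of 2.11 ± 0.627. It went the other way with Ku86 present, where Terc knockouts (25.7 and 84.4) lay under wild types (420.6 and 193.6), and the interaction was 4.73 ± 0.887 (adjusted p = 0.463). Prxl2a, a peroxiredoxin-like protein, measured 168.0 and 197.4 against 98.8 and 17.8, and the single low array made up most of the difference, 0.77 on day 1 and 3.47 on day 2. Without Ku86 knockout replicate 1 the difference of Prxl2a was 3.35 with an adjusted p of 0.03. The other Prxl2a probe set measured 265.2 and 189.8 against 207.4 and 159.9, a difference of 0.30 ± 0.305.

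**Figure D2:**
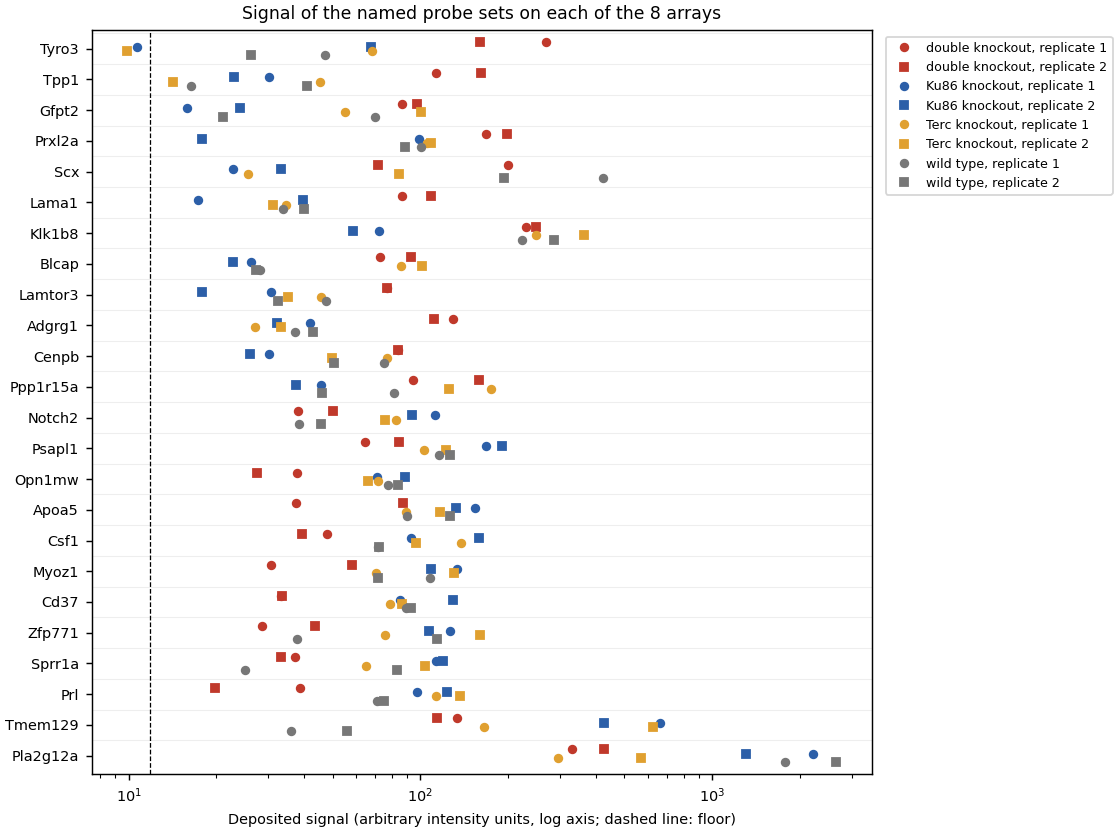
Deposited signal, on a log axis in arbitrary intensity units, of the 24 named probe sets on all 8 arrays, with circles for replicate 1, squares for replicate 2 and a dashed line at the floor of 11.8. Double knockout and Ku86 knockout arrays do not overlap in any row, which the choice of these genes fixed. Pla2g12a, Blcap and Ppp1r15a separate by Terc genotype in both Ku86 backgrounds.

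Among the genes with less signal in double knockouts, Prl, the pituitary hormone prolactin, measured 38.7 and 19.8 against 97.1 and 123.2. Both double knockout arrays were below every other array, since Terc knockouts (113.0 and 136.6) and wild types (71.0 and 75.0) stayed above 70. The difference was -1.98 ± 0.414 and the interaction -2.75 ± 0.585 (adjusted p = 0.792). Csf1, the macrophage colony-stimulating factor, measured 47.7 and 39.3 against 92.9 and 158.9, and Cd37, a leukocyte tetraspanin, 33.2 and 33.5 against 85.3 and 129.1. For both genes, too, the double knockouts were the lowest arrays of the series, with no other array under 71.8 for Csf1 or 78.9 for Cd37.

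The same placing, with both double knockouts below all 6 other arrays, was seen for Psapl1, a prosaposin-like gene (64.8 and 84.7 against 167.8 and 190.4), and Opn1mw, a cone opsin (37.8 and 27.6 against 70.9 and 88.8). It was seen also for Apoa5, a liver apolipoprotein (37.6 and 87.0 against 153.2 and 132.4), and for Myoz1, a protein of the muscle Z-disc (30.8 and 58.2 against 133.5 and 108.7). The differences of these 4 genes lay between -1.51 and -1.27. Sprr1a, a protein of the cornified envelope, measured 37.1 and 33.2 against 113.4 and 119.3, and Zfp771, a zinc finger gene, 28.7 and 43.7 against 126.3 and 107.2. In both of these wild type replicate 1 was also low, at 25 and 37.7. Notch2, a receptor of the Notch pathway, measured 38.2 and 50.1 against 111.8 and 93.7, and the double knockouts there matched the wild types (38.4 and 45.7), while Terc knockouts measured 82.4 and 75.4.

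Probe sets of 4 of the 24 genes had another tested probe set for the same gene, and in each the second differed less: Klk1b8, Pla2g12a, Prxl2a and Tmem129. Of the 24 probe sets, 8 carried a suffix that Affymetrix gives to sets sharing sequence or dropping a design rule, against 20.5% of all tested. A further 21 probe sets differed at least 2-fold on both days without meeting the naming rule, 15 higher and 6 lower. They were picked out after their values were seen, and include Galm, a sugar epimerase (29 and 22.5 against 131.8 and 98.2, a difference of -2.16), while 4 other tested Galm probe sets differed by -0.17 to 0.11. Derl1, an endoplasmic reticulum membrane protein, measured 144.9 and 96.7 against 53.5 and 31.3, a difference of 1.53, and by its other probe set differed by -0.20. The group also includes Star, the cholesterol carrier of steroid synthesis. That Star probe set measured 91.9 and 84.3 against 31 and 25.5, a difference of 1.65 ± 0.715, whereas the other Star probe set measured 53.2 and 63.6 against 43.0 and 79.6, a difference of -0.01 ± 0.461.

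The effect of Terc loss was then set against that with Ku86 present, which comes from 4 other arrays. The interaction was called for 0 probe sets (0.0%, limma). It had an unadjusted p under 0.01 for 70 (0.961%) and under 0.05 for 367 (5.04%). Terc knockout against wild type gave 2 calls (0.0275%), Pla2g12a and Hus1, with 84 (1.15%) at an unadjusted p under 0.01 and 514 (7.06%) under 0.05. Leaving out 1 of these 4 arrays left a group with a single array, so calls of such fits cannot show whether a call rests on that array. Wild type replicate 1 had a day and lot of its own, and without it the Pla2g12a difference was -2.7. That difference was -2.12 without wild type replicate 2, and -1.94 and -2.87 without Terc knockout replicates 1 and 2. Hus1 measured 214.4 and 291.5 in Terc knockouts against 14.3 and 13.7 in wild types. With the experiment number as a block there were 0 calls and with scan day as a block 1, another gene (P4hb). Of the 24 named genes, 11 had the same sign in both backgrounds and 19 had a difference under 1 in size with Ku86 present. For 18 of the 24 the interaction had an unadjusted p under 0.05, which follows in part from choosing genes with a great difference on 1 side. Across all tested probe sets the 2 effects of Terc loss correlated at -0.032, a description over probe sets measured on the same 8 arrays.

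**Figure D3:**
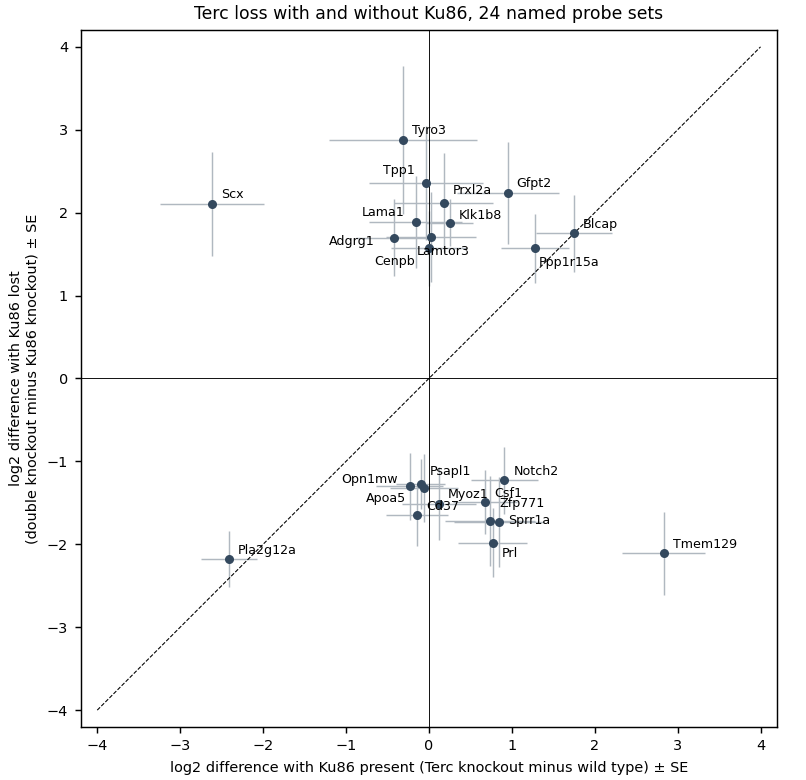
Log2 difference made by Terc loss with Ku86 lost (vertical, double knockout minus Ku86 knockout) against the same with Ku86 present (horizontal, Terc knockout minus wild type) for the 24 named probe sets, with bars of 1 SE from the fit and a dashed line of equality. Pla2g12a, Blcap and Ppp1r15a lie near the line of equality, while Tmem129 and Scx lie in the quadrants of opposite sign.

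Genes next to the targeted loci were listed by gene order in assembly GRCm38.p6. The 10 tested genes on each side of Terc had a median difference of -0.265, between -1.23 for Notch2 and 0.47 for Acp6. Of these 20 genes, 3 were higher and 6 lower in double knockouts without overlap, beside 15.5% and 16.6% of all tested probe sets, and 0 were called. Around Xrcc5, the locus targeted in both groups, the median was -0.01, between -0.62 for Cryge and 0.72 for Wnt6, with 3 higher and 3 lower without overlap. Pde4dip, a gene on the Terc side that encodes a centrosome and Golgi protein, measured 992.6 and 1092.0 against 1529.6 and 1294.4. Of the 12 named lower genes 4 lay on chromosome 3, which carries Terc (Pla2g12a, Sprr1a, Csf1 and Notch2), and of the 12 higher 1 did (Lamtor3), beside 5.19% of tested probe sets with a chromosome. Chromosome 3 as a whole was not shifted. Its 339 tested probe sets had a median difference of 0.010, with 18.6% higher and 16.8% lower without overlap.

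Gene lists were summarised over 1 probe set of each gene, that of the highest mean signal, 368 tested genes in 28 lists, and 0 lists held a called member. Over all 5530 genes the median difference was -0.002, 49.7% were above 0, and 16.3% were higher and 16% lower without overlap. An unadjusted p under 0.05 was reached by 2.51% of genes in the higher and 0.94% in the lower direction. A median of a list over both days need not lie between its medians of the single days. Only 3 lists had a median over 0.3 in size: Sertoli cells, peritubular and smooth muscle, and extracellular matrix. These 3 kept their sign when any 1 of the 4 arrays was left out. Of the 25 other lists, 15 changed sign without at least 1 of those arrays and 10 kept it, so most small medians have no settled direction.

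**Figure D4:**
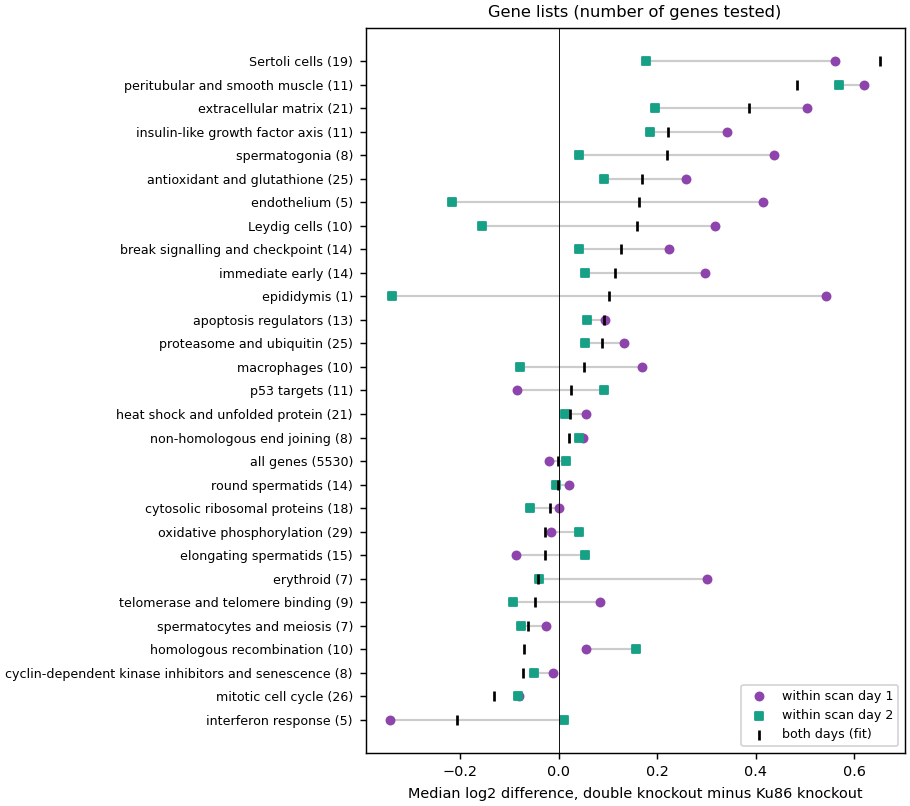
Median log2 difference of each gene list, double knockout minus Ku86 knockout, within scan day 1 (circles), within scan day 2 (squares) and in the fit to both days (vertical ticks), with the number of genes tested in brackets. Sertoli, peritubular and matrix lists are to the right of 0 on both days, and repair, telomere, spermatid and ribosomal lists lie near 0.

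In the list of non-homologous end joining, 4 of 8 tested genes were above 0, with a median of 0.021 and a range from -0.44 to 0.39. Prkdc, the kinase that Ku recruits to broken ends, measured 57.0 and 35.2 against 42.7 and 52.1. Polm, a gap-filling polymerase, measured 195.0 and 302.8 against 322.7 and 336.8, without overlap, a difference of -0.44 ± 0.263. The list of telomerase and telomere binding had 4 of 9 genes above 0 and a median of -0.049. Wrn, the helicase lost in Werner syndrome, measured 265.5 and 239.5 against 376.6 and 318.2 and differed by -0.46 ± 0.263, while the shelterin genes Terf1 and Terf2 differed by -0.05 ± 0.507 and -0.25 ± 0.37 with overlapping groups. Nhp2, which binds telomerase RNA, differed by 0.33 ± 0.267.

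Damage signalling genes had 9 of 14 above 0 and a median of 0.126, but 7 of 14 and 0.019 without double knockout replicate 1. Trp53bp1, which marks chromatin at breaks, measured 256.6 and 224.8 against 167.0 and 164.2. It was the only 1 of the 14 genes without overlap, beside 16.3% higher and 16% lower of all genes. Its difference was 0.54 ± 0.262 (adjusted p = 1.0), with 0.62 on day 1 and 0.45 on day 2. Chek1 and Chek2, the checkpoint kinases, differed by -0.08 ± 0.313 and 0.21 ± 0.337. In the list of homologous recombination 4 of 10 were above 0 and the median was -0.07. Brca2, which loads the strand-exchange protein, measured 516.6 and 557.8 against 467.1 and 474.3, and Rad52 150.8 and 150.9 against 142.0 and 126.4, both without overlap and under 0.2 in size.

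Targets of p53 and cell cycle inhibitors likewise showed no called member. The list of p53 targets had 6 of 11 genes above 0 and a median of 0.026. Cdkn1a, the p21 inhibitor that p53 induces, measured 145.6 and 141.3 against 158.6 and 130.9, a difference of -0.01 ± 0.274, and Mdm2, the ligase that degrades p53, differed by -0.16 ± 0.325. Sesn1, another target, measured 225.3 and 153.1 against 138.6 and 116.8, a difference of 0.55 ± 0.316. Of 8 tested inhibitors and senescence genes 6 were below 0, with a median of -0.073, and Cdkn2a, the locus of p16 and p19, differed by 0.09 ± 0.554 at signals between 37.2 and 54.7.

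The 13 tested apoptosis regulators had a median of 0.091 and 7 above 0, and a median of -0.072 without double knockout replicate 2. Casp9, the initiator caspase of the mitochondrial route, measured 117.7 and 102.6 against 148.9 and 178.4, a difference of -0.57 ± 0.319. Bad, which promotes death, differed by -0.24 ± 0.241, and Mcl1, which opposes it, by 0.30 ± 0.291. Bcl2, a survival factor, differed by -0.04 ± 0.258.

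Mitotic genes had 17 of 26 below 0 and a median of -0.132, which was -0.044 without double knockout replicate 1 and -0.058 without double knockout replicate 2. Below 0 on both days were 13 of the 26, beside 28.5% of all genes. Cdk1, the kinase that drives entry into division, measured 545.1 and 594.0 against 718.8 and 756.6, and Cdk2, which acts earlier in the cycle, 241.7 and 260.9 against 332.9 and 360.8. Both kinases were lower without overlap and by a similar amount on both days, at -0.37 ± 0.214 and -0.46 ± 0.237 (adjusted p = 1.0 for each). Of the 26 genes, 6 were lower and 3 higher without overlap, beside 16% and 16.3% of all genes. Mki67, a marker of dividing cells, differed by -0.29 ± 0.404, and Top2a, the topoisomerase of mitotic chromosomes, by 0.26 ± 0.27.

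Spermatid gene medians were near 0, at -0.002 over 14 round spermatid genes and -0.028 over 15 elongating spermatid genes, with 6 of each above 0. The round spermatid median rested on opposing arrays: it was -0.138 without double knockout replicate 1 and -0.12 without Ku86 knockout replicate 2, but 0.161 without double knockout replicate 2 and 0.137 without Ku86 knockout replicate 1. Prm1, a protamine that packs sperm DNA, measured 13783.2 and 17932.0 against 15409.1 and 17270.8, and Tnp2, a transition protein that precedes it, 15328.2 and 18000.0 against 16936.6 and 18505.7. These overlapped and differed by -0.05 ± 0.155 and -0.09 ± 0.137. Tnp1 differed by -0.34 ± 0.234, and Crem, the transcription factor of spermatids, measured 93.9 and 89.2 against 119.8 and 114.6, a difference of -0.36 ± 0.312. The dim Prm2 probe set, at 65.1 and 155.4 against 57.5 and 60.9, differed by 0.77 ± 0.505.

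Meiotic genes had a median of -0.062, with 3 of 7 above 0. Ldhc, the lactate dehydrogenase of spermatocytes, differed by 0.12 ± 0.154, and Sycp1, which joins homologous chromosomes in the synaptonemal complex, measured 481.7 and 458.5 against 256.6 and 423.6, a difference of 0.51 ± 0.307. The marker Sycp3 lay at or under the floor on all 4 arrays. Spermatogonial genes had 5 of 8 above 0 and a median of 0.219, from 0.437 on day 1 and 0.042 on day 2. That median was 0.108 without double knockout replicate 1, 0.407 without double knockout replicate 2 and 0.414 without Ku86 knockout replicate 2. Dazl, an RNA-binding protein of early germ cells, measured 696.3 and 495.4 against 330.0 and 443.9, a difference of 0.62 ± 0.272 (adjusted p = 1.0). Uchl1, a ubiquitin hydrolase of spermatogonia, measured 436.7 and 387.4 against 267.8 and 350.2. In both genes Ku86 knockout replicate 1 was the lowest of the 4 arrays.

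Sertoli cells nurse the germ cells inside the tubule, and their genes gave the highest list median, 0.652, with 15 of 19 above 0. The groups did not overlap for 13 higher and 2 lower genes, beside 16.3% and 16% of all genes. An unadjusted p under 0.05 was reached by 5 higher genes, beside 2.51% of all genes. Ctsl, a secreted protease, measured 778.6 and 602.1 against 194.5 and 484.8, a difference of 1.16 ± 0.422. Cst9, a cystatin, measured 884.9 and 624.2 against 324.8 and 476.7, a difference of 0.92 ± 0.275. Cldn11, a claudin of the blood-testis barrier, measured 191.3 and 147.8 against 63.9 and 100.6, a difference of 1.07 ± 0.384, and Clu, the abundant secreted protein clusterin, 1409.6 and 1062.5 against 475.2 and 976.3. Ku86 knockout replicate 1 was the lowest of the 4 compared arrays in each of these 4 genes, and the adjusted p was 1.0 for all. Wild type arrays reached lower, to 183.7 for Ctsl, 280.0 for Cst9, 42.9 for Cldn11 and 396.8 for Clu.

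Wt1, the transcription factor that maintains Sertoli identity, measured 125.5 and 116.2 against 72.6 and 80.8, a difference of 0.66 ± 0.365 that was 0.79 on day 1 and 0.52 on day 2. Amh, the hormone of immature Sertoli cells, differed by 0.07 ± 0.548 at signals between 29.6 and 44.1. Fshr, the receptor for follicle-stimulating hormone, measured 256.2 and 263.7 against 296.1 and 322.1, and was chosen for mention after its values were seen as 1 of the 2 lower genes. The list median was 0.56 on day 1 and 0.178 on day 2. Without Ku86 knockout replicate 1 it was 0.229, with 14 of 19 above 0 and 0 at an unadjusted p under 0.05, whereas without either double knockout array it was 0.573 or 0.561.

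The contractile peritubular cells that surround the tubule, together with smooth muscle, had 10 of 11 genes above 0 and a median of 0.484. Its medians were similar on the 2 days, at 0.619 and 0.568, with 8 genes above 0 on both. Csrp1, a LIM protein of smooth muscle, measured 104.8 and 206.6 against 48.8 and 91.4, a difference of 1.14 ± 0.468 and at least 2-fold on each day. Acta2, smooth muscle actin, measured 296.0 and 500.2 against 178.4 and 293.2, a difference of 0.75 ± 0.417. Myh11, smooth muscle myosin, measured 95.7 and 120.7 against 49.5 and 81.4, and Tagln, which binds actin, 124.0 and 183.4 against 104.5 and 111.2. All 4 genes were free of overlap, although the margin for Acta2 was small. Of all 11 genes, 6 were higher and 0 lower without overlap, beside 16.3% and 16% of all genes. The median was 0.311 without Ku86 knockout replicate 1, and 0.85 and 0.8 without double knockout replicate 1 and Ku86 knockout replicate 2.

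Matrix genes had 16 of 21 above 0 and a median of 0.386, 0.503 on day 1 and 0.195 on day 2. Without overlap 9 were higher and 4 lower, beside 16.3% and 16% of all genes. Itgb1, the integrin chain that binds laminin and collagen, measured 609.2 and 550.4 against 275.5 and 342.8, a difference of 0.91 ± 0.277. Dcn, a collagen-binding proteoglycan, measured 707.8 and 578.0 against 224.5 and 440.5, and Sparc, a matricellular protein, 265.2 and 190.3 against 74.0 and 178.1. Fibrillar collagen did not follow, as Col1a2 measured 761.7 and 839.5 against 1012.2 and 919.7, and Col1a1 overlapped. Without Ku86 knockout replicate 1 the median was 0.132 and 0 genes had an unadjusted p under 0.05, in place of 4.

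The 3 lists were therefore set out array by array, as the median signal of each list relative to the mean of all 8 arrays. For Sertoli genes it was 0.451 and 0.511 in double knockouts, -0.163 and 0.147 in Ku86 knockouts, 0.157 and 0.179 in Terc knockouts and -0.459 and -0.364 in wild types. For peritubular genes the same medians were 0.476 and 0.87, -0.106 and 0.309, 0.135 and -0.177, and -0.715 and -0.692. In both lists the double knockouts were the highest and the wild types the lowest arrays. For matrix genes they were 0.282 and 0.49, -0.206 and 0.153, 0.061 and 0.361, and -0.531 and -0.325, so that there Terc knockout replicate 2 exceeded double knockout replicate 1. Spermatid markers summed to between 38625.5 and 43529.2 on the 4 arrays for Prm1, Prm2, Tnp2 and Odf1, the lowest on double knockout replicate 1, and their part in the somatic differences was not tested.

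**Figure D5:**
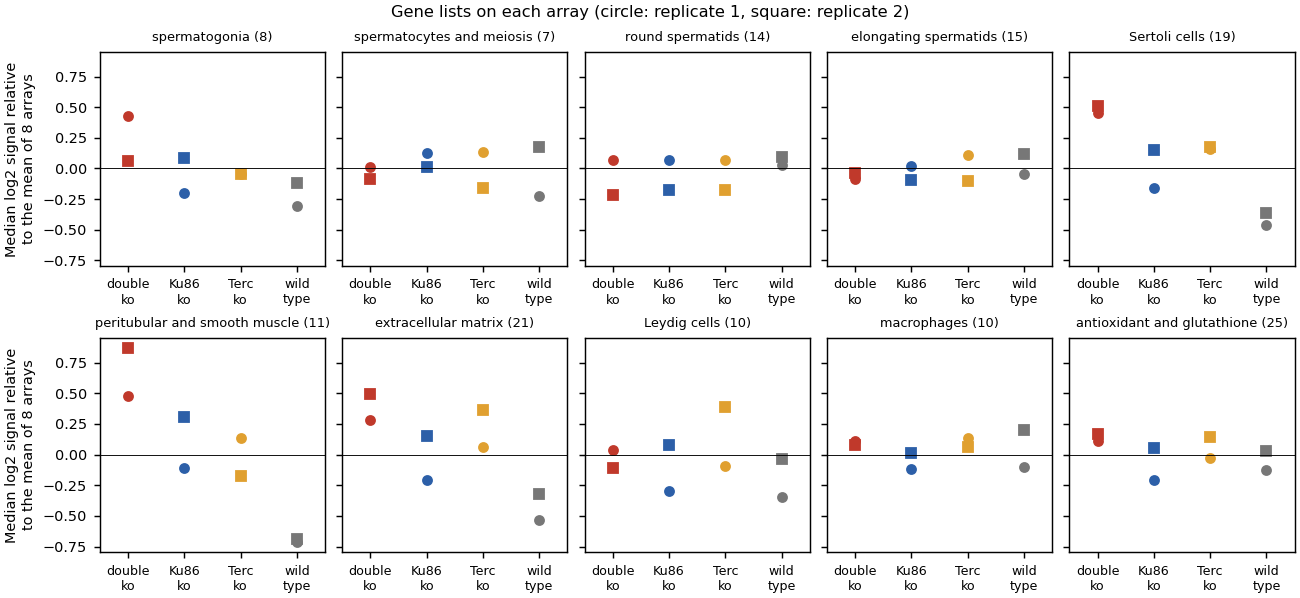
Median log2 signal of 10 gene lists on each of the 8 arrays, relative to the mean of the 8 arrays for each gene, by genotype, with circles for replicate 1, squares for replicate 2 and the number of genes in brackets. Double knockouts are highest for Sertoli and peritubular lists, Ku86 knockout replicate 1 lies under replicate 2 in every somatic list, and spermatid lists vary by less between genotypes.

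Other somatic cells did not show the same picture. Leydig cell genes, which make testosterone, had a median of 0.158 over 10 genes but 0.317 on day 1 and -0.155 on day 2. That median ranged from -0.068 without Ku86 knockout replicate 1 to 0.347 without Ku86 knockout replicate 2. Cyp11a1, which starts steroid synthesis, measured 376.0 and 153.0 against 85.6 and 221.3, and Cyp17a1, a later step, 1041.7 and 535.2 against 510.5 and 591.7. In both, double knockout replicate 1 was the highest of the 4 arrays and the groups overlapped. Hsd3b6, the steroid dehydrogenase of mature Leydig cells, was too dim to be tested, at 121.1 and 57 against 9.7 and 12. Macrophage genes had a median of 0.052 over 10 genes, with Csf1r, the receptor for Csf1, at 0.01 ± 0.386, and Cd68 at 0.31 ± 0.404. Of 5 tested endothelial genes Pecam1, an adhesion molecule, measured 129.3 and 68.6 against 44.2 and 42.3, a difference of 1.12 ± 0.486, and Sox17 measured 394.4 and 395.5 against 482.5 and 485.7. Erythroid genes had a median of -0.041, and Hba-a1, a globin of residual blood, ranged from 869.9 to 2354.0 with both extremes in Ku86 knockouts. The epididymis, a possible trace tissue, had a single tested gene, Gpx5, at 0.10 ± 0.536.

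Antioxidant genes had 16 of 25 above 0 and a median of 0.169, which was 0.301 without double knockout replicate 1. Without overlap 10 were higher and 1 lower, beside 16.3% and 16% of all genes. Txn1, the cytosolic thioredoxin, measured 334.5 and 223.3 against 90.3 and 114.1. Its double knockout signals were well clear of the Ku86 knockouts, with a difference of 1.43 ± 0.341, an unadjusted p of 0.00129 and an adjusted p of 1.0, and it was 1.89 and 0.97 higher on the 2 days. Gclm, the modifier subunit of the first enzyme of glutathione synthesis, measured 233.8 and 213.6 against 157.4 and 121.9, a difference of 0.69 ± 0.261. Gstm2, a glutathione transferase, measured 896.0 and 977.3 against 388.2 and 794.4. Superoxide dismutases 1 and 2 (Sod1 and Sod2) overlapped, at 0.13 ± 0.226 and -0.03 ± 0.252, and the secreted Sod3 differed by 0.56 ± 0.268.

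The insulin-like growth factor axis had 9 of 11 genes above 0 and a median of 0.221. Igfbp6, a binding protein, measured 362.6 and 380.7 against 100.9 and 315.4, a difference of 1.06 ± 0.572 that was 1.85 on day 1 and 0.27 on day 2. Igf1, the growth factor itself, measured 539.6 and 577.0 against 648.8 and 629.9, a difference of -0.20 ± 0.22. Its receptor Igf1r measured 133.3 and 260.8 against 81.4 and 189.0.

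Proteasome and ubiquitin genes had 19 of 25 above 0 with a small median of 0.088, and 14 of 25 with 0.038 without double knockout replicate 1. Psmd1, a subunit of the regulatory particle, measured 634.7 and 532.5 against 350.7 and 422.3, a difference of 0.60 ± 0.22. Rnf20, the ligase that ubiquitylates histone H2B, measured 112.9 and 248.6 against 80.8 and 45.0, a difference of 1.47 ± 0.423 with an adjusted p of 1.0, made up of 0.48 on day 1 and 2.47 on day 2.

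Heat shock and unfolded protein genes had a median of 0.023, and Hspa5, the main chaperone of the endoplasmic reticulum, differed by 0.09 ± 0.208. Ddit3, the stress factor CHOP, differed by -0.08 ± 0.238. Immediate early genes had a median of 0.115, and of 0.043 without Ku86 knockout replicate 1, with Egr2, a zinc finger factor, at 47.9 and 25.5 against 90.2 and 61.6, a difference of -1.09 ± 0.507, and Ccn2, a matricellular growth factor, at 127.1 and 185.8 against 73.3 and 123.5, a difference of 0.69 ± 0.376. Medians were -0.028 for 29 oxidative phosphorylation genes, -0.018 for 18 cytosolic ribosomal protein genes and -0.206 for 5 interferon response genes, the last being -0.019 without double knockout replicate 1. Rplp0, a ribosomal stalk protein, measured 7153.7 and 8104.5 against 7582.3 and 8513.8, and Irf7, the interferon regulator, 97.7 and 140.5 against 148.0 and 137.0.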

How the data were processed

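RNA was hybridised to 8 Affymetrix MG_U74Av2 arrays, 2 for each of 4 genotypes. Each deposited value was a linear intensity of 1 probe set, scaled by the authors array by array, as read from the values (means without the extreme 2% at each end, 200.13 to 200.16). Which software they used is not stated in these sources. Values were kept as deposited, set to a floor of 11.8 (pooled 20th percentile) and converted to log2. The 66 controls and 5140 probe sets under a mean of 38.1 (pooled 40th percentile) were left out. Linear models with 1 mean per genotype were fitted to all 8 arrays with limma 3.58.1 in R 4.3.3 (lmFit, eBayes with a trend), two-sided, with Benjamini-Hochberg adjustment over all 7282 tested probe sets and calls at 0.05. The code was tested on simulated data.

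Gene symbols came from GEO's platform annotation: 10855 probe sets had 1 symbol, 396 several and 1237 none, and 10839 of the Entrez identifiers were matched to the RefSeq gene table of GRCm38.p6. Named genes were Xrcc5, Xrcc6, Terc and Tert, then called probe sets, then up to 12 in each direction with 1 symbol, groups that did not overlap and an unadjusted p under 0.01, by size of difference. For each list they were its first 3 tested members and the 3 with the greatest moderated statistic. The members, lists and rules were chosen with earlier results of these data known, so list counts are descriptions and carry no test. Same-numbered arrays of the 2 groups shared a scan day, so the numbers were taken to pair them. Their deviations from the group means correlated at 0.254. Double knockouts gave 0.22 with Terc knockouts, whose arrays shared 1 day, and 0.171 with wild types, so the correlation does not single out the scan day. Pairs of groups without double knockouts gave 0.013 to 0.046. The precision is limited by the 2 arrays per group. Alternatives covered the scaling, floor, filter, variance trend, arrays fitted, blocks, threshold, averaging over probe sets of a gene and each array left out, and those for Terc knockout against wild type were added after its values were seen, as was the summary of chromosome X.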

Additional observations from a re-analysis of the deposited data

How the results depend on the processing

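The absence of calls held under quantile normalization, median centring, other floors, an offset, a filter at the 60th percentile, no variance trend, the 4 arrays alone, a scan day block and an adjusted p under 0.1. Without a filter there were 4 calls, all probe sets too dim to be tested otherwise (Aff1, Eif4e, Rell1 and Sh3rf1), and 8 called interactions. The experiment number as a replicate block called 0 with 8 arrays (lowest adjusted p 0.206) and 3 with the 4 arrays. The pairing changed no other call of that comparison or of the interaction, but with 8 arrays it removed both calls between Terc knockout and wild type. Leaving out 1 array gave 0 to 2 calls and 0 to 1 called interactions: Cox6b2 (4205.8 on double knockout replicate 1, 603.3 on replicate 2) and Fabp5 (34.4 and 302.5) without double knockout replicate 2, Prxl2a and an unnamed probe set without Ku86 knockout replicate 1, and the Tmem129 interaction (-5.90) without Terc knockout replicate 1.

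The 53 probe sets at an unadjusted p under 0.01 became 126 without a filter, 32 with the 60th percentile filter, 215 with the 4-array replicate block and 43 to 109 when 1 array was left out. Their share higher in double knockouts was 69.8%, but 58.7% after median centring, 23.3% without double knockout replicate 1 and 92.7% without Ku86 knockout replicate 2, so the direction of this tail rests on single arrays. Signs of differences and interactions were followed for the 24 genes and for Xrcc5, Xrcc6 and Tert, but not for genes named from lists. Of those differences only that of Tert (-0.28 to 0.17 over arrays left out) changed sign. Interactions that changed sign were those of Xrcc5 (-0.22 with a floor at the 40th percentile, -0.67 to 1.92 over arrays left out), Xrcc6 (-0.08 to 0.73), Ppp1r15a (-0.12 with scan day as a block, -0.12 to 0.70) and Pla2g12a (-0.24 to 0.70). The Blcap interaction, -0.0 in the main fit, was not counted among them, and ran from -0.17 to 0.17 over arrays left out. The cause of these shifts was not tested. Recomputed list medians moved by more than the spread between days in 63 cases and by less in 524. Many of the 524 could not move and say nothing of stability. The difference stays the same when an array with Ku86 is left out, the variance trend is dropped or the 4 arrays are fitted alone. In most named probe sets the mean signal of the lower group was under 100. With 2 arrays per group, only differences several times the median SE of 0.313 could pass the adjusted threshold.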

Other observations

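Probe sets were also summarised by chromosome, and chromosome X was singled out after those values were seen. Of 130 tested probe sets on X, 30.8% were higher in double knockouts without overlap and 12.3% lower, beside 15.5% and 16.6% of all tested probe sets. Their median difference was 0.209, from 0.26 on day 1 and 0.09 on day 2, and 43.8% were above 0 on both days, beside 27.2% of all tested. Relative to the mean of the 8 arrays, the X median was 0.17 and 0.201 in double knockouts, -0.087 and 0.154 in Ku86 knockouts, 0.069 and 0.08 in Terc knockouts and -0.351 and -0.124 in wild types. Without Ku86 knockout replicate 1 the median difference was 0.057. X-linked genes are silenced in meiotic germ cells, and the part of cell makeup in these values was not tested.

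Among the X-linked genes with an unadjusted p under 0.01, Htatsf1, a factor of transcript elongation and splicing, measured 211.2 and 177.5 in double knockouts against 75.8 and 96.9 in Ku86 knockouts. Eif2s3x, a subunit of translation initiation factor 2, measured 147.3 and 256.0 against 99.5 and 47.5, and Hmgb3, a chromatin protein, 506.7 and 366.8 against 189.6 and 287.7. The differences were 1.18 ± 0.324, 1.5 ± 0.474 and 0.88 ± 0.274, all with an adjusted p of 1.0. Opn1mw, with the opposite sign, was the lowest of the X-linked probe sets at -1.30 ± 0.405.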
